A study of Mus musculus with 6 samples.

Results

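Integrins are the cell surface receptors that tie cells to the matrix, and osteopontin, the product of Spp1, is a secreted matrix protein that some of them bind. The 10 genes described here are 9 integrin subunit genes (Itgav, Itgb1, Itgb3, Itgb5, Itgb6, Itgb8, Itga1, Itga5 and Itga6) and Spp1, picked by symbol as attachment molecules of implantation. All 10 were found among the 56748 gene rows of each table, and all 10 had enough counts to be tested among 16737 genes. The libraries came from mouse uterus, called endometrium in the series design, on day 4 of pregnancy at 1600 h. The sample titles give 2 groups of 3 libraries: Zip10 cKO libraries 1, 2 and 3, from mice with a conditional knockout of the zinc transporter Zip10 (Slc39a10) that the design calls specific to the uterus, and Control libraries 1, 2 and 3, whose genotype is labelled WT. The promoter that drives the deletion, the strain and the age are not given in these sources. The labels do not tie each library to its own animal, so the p-values reflect only how these samples spread, which may be technical.

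Each integrin is a pair of an alpha and a beta subunit, and the pairing sets what the receptor binds. The alpha v subunit pairs with beta 1, beta 3, beta 5, beta 6 or beta 8 and binds the RGD motif of vitronectin, fibronectin, osteopontin or latent TGF-beta, whereas alpha 1, alpha 5 and alpha 6 pair with beta 1 and bind collagen, fibronectin and laminin. In the uterus integrins lie on luminal epithelium, stroma, vessels and muscle, and in human endometrium the beta 3 subunit and osteopontin are used as markers of the receptive phase.

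Total gene counts ran from 19643093 to 22328343 in cKO libraries and from 20176528 to 22809577 in controls. The targeted gene, Slc39a10, was at 39.5, 72.5 and 79.8 CPM (expected counts per 1000000, with library sizes scaled by TMM) in cKO libraries 1, 2 and 3, against 54.6, 70.4 and 66.2 CPM in controls 1, 2 and 3. Which exons were deleted is not stated and reads from the remaining ones are still counted, so this level does not check the genotype, and every direction below follows the sample titles. The uterine genes Pgr, Esr1, Hoxa10, Hoxa11 and Msx1 were all detected, with a summed level of 523 to 654 TPM (the deposited values per transcript length) in cKO libraries and 623 to 681 TPM in controls. By multidimensional scaling cKO library 1 was separated from the rest, at -1.48 on dimension 1, with the other libraries between -0.08 and 0.74, and 3.43% of its counts were mitochondrial, with 4.50% to 4.84% in the others.

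The start regions of 3 genes are printed because their values carry the description that follows: Itgav and Itga1, whose groups did not overlap, and Itgb6, whose estimated transcript length differed between libraries and which has 2 annotated starts. Each holds the 250 bases before a RefSeq start, 5′ to 3′ on the gene's strand, from RefSeq on GRCm38.p6, which is not the build of the deposited tables. Capitals mark a CArG box, the site of serum response factor.
Itgav, chr2:83724147-83724396, plus strand: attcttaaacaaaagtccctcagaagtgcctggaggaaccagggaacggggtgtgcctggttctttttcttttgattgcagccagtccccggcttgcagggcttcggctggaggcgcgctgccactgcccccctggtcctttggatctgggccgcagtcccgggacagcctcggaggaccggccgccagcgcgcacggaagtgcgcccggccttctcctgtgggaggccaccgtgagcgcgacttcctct
Itga1, chr13:115101965-115102214, minus strand: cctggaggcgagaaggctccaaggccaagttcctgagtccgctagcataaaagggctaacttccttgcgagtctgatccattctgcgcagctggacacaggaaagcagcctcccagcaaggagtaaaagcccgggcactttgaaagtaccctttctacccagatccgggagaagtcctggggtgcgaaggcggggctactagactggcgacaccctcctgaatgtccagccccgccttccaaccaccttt
Itgb6 upstream start, chr2:60722604-60722853, minus strand: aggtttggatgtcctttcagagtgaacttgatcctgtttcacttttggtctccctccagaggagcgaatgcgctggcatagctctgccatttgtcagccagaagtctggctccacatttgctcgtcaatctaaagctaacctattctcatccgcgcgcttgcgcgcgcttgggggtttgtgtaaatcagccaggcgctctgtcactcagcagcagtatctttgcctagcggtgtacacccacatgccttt
Itgb6 downstream start, chr2:60673694-60673943, minus strand: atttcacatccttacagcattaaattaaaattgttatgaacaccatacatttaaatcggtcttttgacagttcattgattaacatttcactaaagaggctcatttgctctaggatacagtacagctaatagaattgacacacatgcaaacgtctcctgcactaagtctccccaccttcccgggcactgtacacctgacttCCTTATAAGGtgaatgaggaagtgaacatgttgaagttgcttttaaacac
Of the 10 genes, 8 are in the RefSeq table, with Itgb3 and Itga6 named only. Both strands of the 32851 regions of this length used here were searched for the GC box GGGCGG, the TATA box TATAAA, the AP-1 site TGANTCA, the E-box CACGTG and, by name, the CArG box. GGGCGG was in 32.7% of all regions and in those of Itga5, Itgb1 and Itgb5, TATAAA in 12.4% and in 1 of the 2 regions of Spp1, and the CArG box in 1.47% and in the downstream region of Itgb6. TGANTCA was in 6.75% and CACGTG in 6.02% of all regions and in none of the 8 genes' regions. The regions of Itgav and Itga1 held none of these letters.

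In the comparison of Zip10 cKO with Control, edgeR's quasi-likelihood test called none of the 10 genes at its threshold, an adjusted p of 0.05, where the share of all tested genes called was 0.0%. Their smallest adjusted p in that test was 0.747. DESeq2 called none of the 10 either, though it called 38 genes in all, and limma-voom called 0 genes. Of the 10, 8 had a log2 fold change above 0 and 2 below, with a median of 0.39, beside a median of 0.00 over all genes tested. At an unadjusted p under 0.05 in the quasi-likelihood test there were 4 genes, Itgav, Itga1, Itga5 and Itgb5, all higher in cKO libraries, where 4.48% of all tested genes were higher at that level, and 0 were lower, where 1.98% were. The 3 cKO libraries lay above the 3 controls with no overlap for 2 of the 10, Itgav and Itga1, where 6.93% of all tested genes did so, and below them for 0 of the 10, where 5.78% did.

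**Figure D1:**
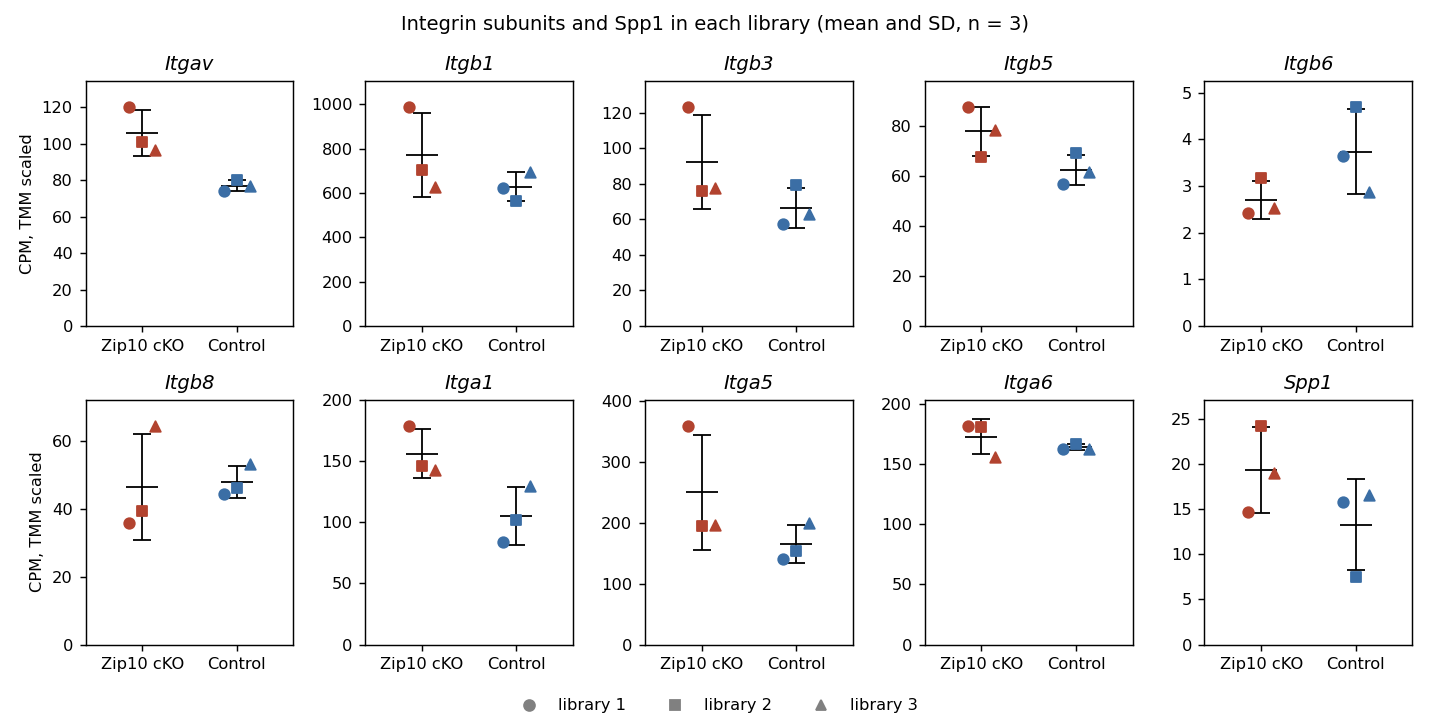
CPM after TMM scaling (vertical axes, each from 0) of the 9 integrin genes and Spp1 in the 3 Zip10 cKO libraries (left) and the 3 Control libraries (right), with the mean and SD of each group. Itgav and Itga1 are the panels in which no cKO point reaches down to a control point, and cKO library 1 is the highest of the 6 libraries in 7 panels.

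Itgav (ENSMUSG00000027087) encodes the alpha v subunit of RGD-binding receptors, the partner of beta 3, beta 5, beta 6 and beta 8. Its level was 120, 101 and 96.4 CPM in cKO libraries 1, 2 and 3, against 74.2, 79.9 and 76.9 CPM in controls 1, 2 and 3. Every cKO library was above every control, and the controls lay close together. The means were 106 ± 12.6 CPM in cKO libraries and 77.0 ± 2.88 CPM in controls (SD, n = 3 each), a fold of 1.37 with a 95% interval from 1.16 to 1.63 (edgeR quasi-likelihood unadjusted p = 0.00249, adjusted p = 0.747). DESeq2 gave an adjusted p of 0.138. Counts of Itgav ran from 1940 to 2524 in cKO libraries and from 1618 to 1688 in controls.

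Of the beta partners of alpha v other than beta 1, Itgb5 and Itgb3 lay higher on average in cKO libraries, and Itgb6 and Itgb8 did not. Itgb5 (ENSMUSG00000022817), whose subunit makes a vitronectin receptor, was at 87.3, 67.5 and 78.2 CPM in cKO libraries 1, 2 and 3, against 56.8, 68.9 and 61.3 CPM in controls 1, 2 and 3. cKO library 2 lay below control 2, so the groups overlapped. The log2 fold change was 0.32 ± 0.12 (SE; edgeR quasi-likelihood unadjusted p = 0.0306, adjusted p = 0.747). Itgb3 (ENSMUSG00000020689), the vitronectin receptor subunit that platelets also carry, was at 123, 76.2 and 77.7 CPM in cKO libraries 1, 2 and 3, against 57.2, 79.2 and 62.9 CPM in controls 1, 2 and 3. cKO library 1 was far above the rest, while cKO libraries 2 and 3 lay just under control 2. The log2 fold change was 0.47 ± 0.21 (SE; edgeR quasi-likelihood adjusted p = 0.747). Without cKO library 1 the Itgb3 log2 fold change was 0.21.

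Itgb8 (ENSMUSG00000025321) and Itgb6 (ENSMUSG00000026971) encode the beta subunits whose alpha v receptors release TGF-beta from its latent form, and beta 6 is largely an epithelial subunit. Itgb8 was at 35.7, 39.5 and 64.5 CPM in cKO libraries 1, 2 and 3, against 44.3, 46.3 and 53.2 CPM in controls 1, 2 and 3. The cKO libraries spread to both sides of the controls, cKO 1 and 2 below all of them and cKO 3 above. Its log2 fold change was -0.04 with a 95% interval from -0.54 to 0.45, and its sign turned when cKO library 1 (0.12), cKO library 2 (0.06) or control library 3 (0.03) was left out. Without cKO library 3 it was -0.35 (edgeR quasi-likelihood unadjusted p = 0.0247, adjusted p = 0.609).

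Itgb6 was the scarcest of the 10 genes, with 51, 69 and 51 counts in cKO libraries 1, 2 and 3, against 83, 95 and 61 counts in controls 1, 2 and 3. Its level was 2.42, 3.17 and 2.53 CPM in cKO libraries 1, 2 and 3, against 3.65, 4.69 and 2.88 CPM in controls 1, 2 and 3. cKO libraries 1 and 3 lay below all controls, and cKO library 2 lay above control 3. The log2 fold change was -0.46 ± 0.26 (SE; edgeR quasi-likelihood adjusted p = 0.756) and was -0.27 without control library 2. The deposited TPM ran the other way, at 2.99, 1.11 and 2.02 TPM in cKO libraries 1, 2 and 3, against 0.96, 1.54 and 0.80 TPM in controls 1, 2 and 3, and on log2(TPM + 1) the change was 0.50. TPM divides by an effective length that RSEM estimates for each library from the transcripts it assigns reads to. That length was 1102, 3627 and 1662 bases in cKO libraries 1, 2 and 3, against 4503, 3984 and 4604 bases in controls 1, 2 and 3, so all cKO values lay below all controls. Such a split is not particular to Itgb6. Among genes named below, the effective lengths of Flnc, Tns1 and Npnt, for example, were also lower in all cKO libraries. Those of Itga7 and Tln1 were higher in all of them. The share of all genes with such a split was not counted. GENCODE M21 lists 9 Itgb6 transcripts of 236 to 4806 bases, and the first 20 bases of 2 of them match the printed upstream region or the 50 bases after it, and those of 5 the downstream one. This length was singled out after its values were seen, it rests on the few counts above, and which transcripts the reads came from was not tested.

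**Figure D2:**
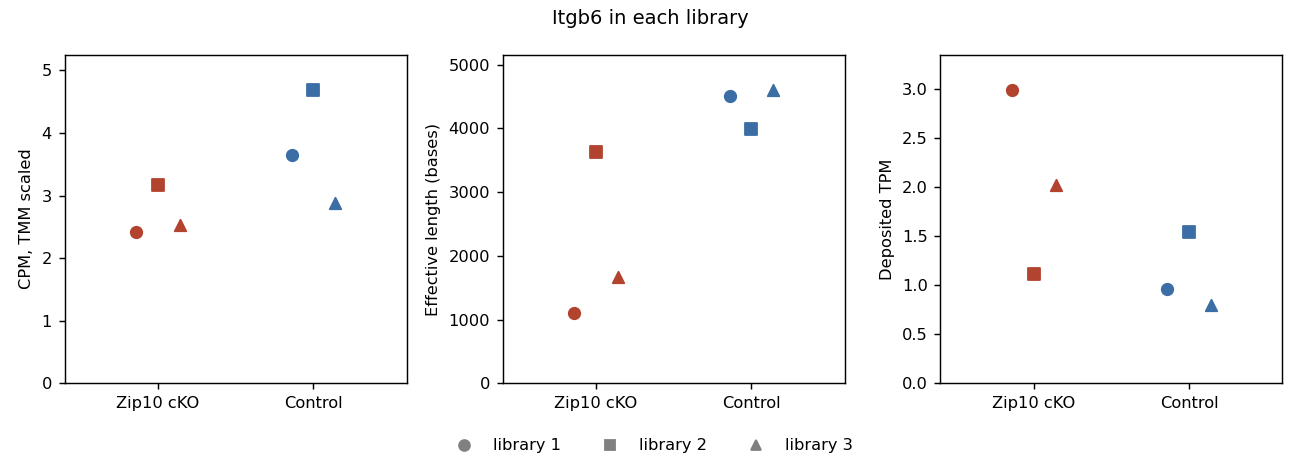
Itgb6 in each library as CPM after TMM scaling (left), as RSEM effective length in bases (middle) and as deposited TPM (right), with Zip10 cKO left of Control in each panel and all axes from 0. The effective lengths of 1102 and 1662 bases in cKO libraries 1 and 3 stand beside 3984 to 4604 bases in controls.

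Itgb1 (ENSMUSG00000025809), the beta subunit shared by most alpha subunits, was at 987, 705 and 628 CPM in cKO libraries 1, 2 and 3, against 623, 565 and 696 CPM in controls 1, 2 and 3. cKO library 1 was well above the rest, and the other libraries overlapped. The log2 fold change was 0.30 ± 0.18 (SE; edgeR quasi-likelihood adjusted p = 0.760) and was 0.08 without cKO library 1. Per length, Itgb1 made up most of the beta subunit RNA that can serve alpha v. Its share of the summed TPM of Itgb1, Itgb3, Itgb5, Itgb6 and Itgb8 was 79.7% ± 2.78 in cKO libraries and 80.0% ± 3.22 in controls (SD, n = 3 each). Itgb5 took 11.5% ± 1.75 in cKO libraries and 11.4% ± 1.83 in controls, and Itgb3 took 5.99% ± 0.413 in cKO libraries and 5.44% ± 1.18 in controls. Itgb8 took 2.25% ± 1.08 in cKO libraries and 2.67% ± 0.118 in controls, and Itgb6 0.551% ± 0.169 in cKO libraries and 0.402% ± 0.154 in controls. In TPM each of these 5 differences between group means was smaller than the larger of the 2 SDs. In expected counts the Itgb6 share ran the other way, at 0.283% ± 0.0808 in cKO libraries and 0.469% ± 0.143 in controls (SD, n = 3 each), a gap larger than either SD.

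**Figure D3:**
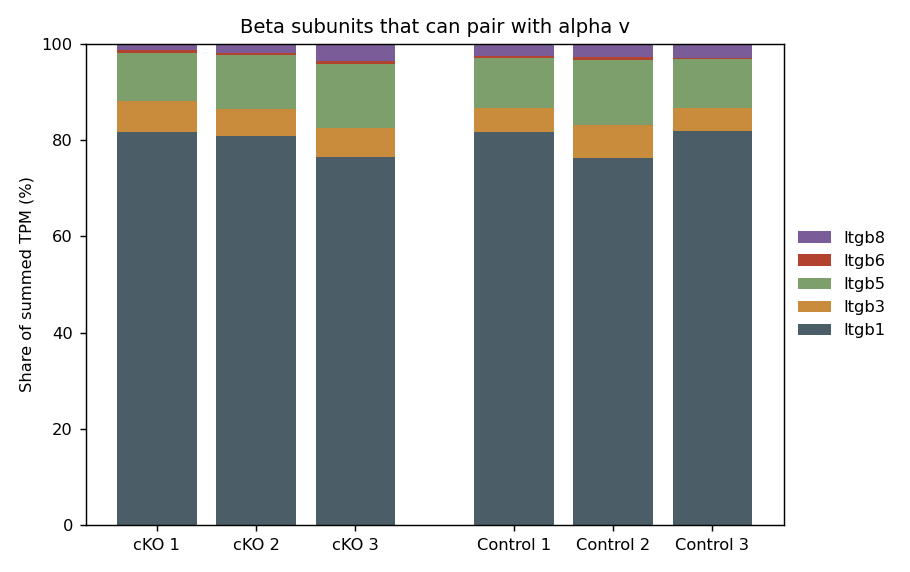
Share of each beta subunit gene in the summed deposited TPM of Itgb1, Itgb3, Itgb5, Itgb6 and Itgb8 (percent), one bar per library, with the 3 Zip10 cKO libraries left of the 3 controls. Itgb1 fills 76.5% to 81.7% of the cKO bars and 76.3% to 82.0% of the control bars.

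Beside alpha v, the alpha partners of beta 1 here are alpha 1, alpha 5 and alpha 6. The log2 fold changes of Itga1 and Itga5, at 0.57 and 0.60, were above that of Itga6, at 0.08. Their 95% intervals overlapped, and differences between these genes were not tested. Itga1 (ENSMUSG00000042284), of the collagen and laminin receptor found on smooth muscle, stroma and vessels, was at 179, 146 and 143 CPM in cKO libraries 1, 2 and 3, against 83.6, 102 and 130 CPM in controls 1, 2 and 3. No cKO library reached down to a control, though control 3 came near. The means were 156 ± 20 CPM in cKO libraries and 105 ± 23.4 CPM in controls (SD, n = 3 each), a fold of 1.48 with a 95% interval from 1.13 to 1.94 (edgeR quasi-likelihood unadjusted p = 0.00944, adjusted p = 0.747). In GENCODE M21 the Itga1 locus also holds the protein-coding genes Pelo and Gm49395 on the same strand and an antisense gene. No strand setting is given in these sources, so reads of overlapping genes could be split between them. Those genes had at most 398 counts in any library, against 1903 to 3765 counts of Itga1.

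Itga5 (ENSMUSG00000000555), of the main fibronectin receptor, was at 359, 194 and 196 CPM in cKO libraries 1, 2 and 3, against 141, 153 and 200 CPM in controls 1, 2 and 3. Only cKO library 1 was above all controls, with cKO libraries 2 and 3 between control 2 and control 3. The log2 fold change was 0.60 ± 0.26 (SE; edgeR quasi-likelihood unadjusted p = 0.0475, adjusted p = 0.747) and was 0.25 without cKO library 1. Itga6 (ENSMUSG00000027111), of the laminin receptors of epithelium and endothelium, was at 182, 181 and 156 CPM in cKO libraries 1, 2 and 3, against 163, 167 and 163 CPM in controls 1, 2 and 3. cKO 3 lay below the controls and the other cKO libraries above them. The fold was 1.05 with a 95% interval from 0.899 to 1.24. Itgb4, the other beta partner of alpha 6 and a subunit of hemidesmosomes, was at 54.9, 62.7 and 77.4 CPM in cKO libraries 1, 2 and 3, against 56.3, 71.2 and 64.7 CPM in controls 1, 2 and 3.

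Spp1 (ENSMUSG00000029304), a ligand of alpha v receptors that glands and leukocytes secrete, was at 14.7, 24.2 and 19.0 CPM in cKO libraries 1, 2 and 3, against 15.8, 7.46 and 16.5 CPM in controls 1, 2 and 3. Control 2 was the lowest library, and cKO 1 lay below controls 1 and 3, so the groups overlapped in CPM. The fold was 1.46 with a 95% interval from 0.892 to 2.37 (edgeR quasi-likelihood unadjusted p = 0.115, adjusted p = 0.756). In deposited TPM the groups did not overlap, at 17.6, 25.5 and 20.8 TPM in cKO libraries 1, 2 and 3, against 15.5, 8.0 and 17.4 TPM in controls 1, 2 and 3, where 9.52% of all tested genes had higher cKO libraries with no overlap. Without control library 2 the log2 fold change was 0.26, and without cKO library 2 it was 0.34, against 0.54 over all libraries. Among other integrin subunits that bind osteopontin, Itga9 had a log2 fold change of 0.51 ± 0.28 and Itga4 one of 0.28 ± 0.21 (SE). The groups overlapped in CPM for both, and for Itga9 cKO library 3, at 41.1 CPM, lay below all controls.

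By level per length, the order was the same in both groups apart from Itga5 and Itga6. Itgb1 was highest, at 290 ± 79.7 TPM in cKO libraries and 222 ± 24.9 TPM in controls (SD, n = 3 each). Itga5 and Itga6 came next, with overlapping ranges in cKO libraries, at 65.5 to 124 TPM and 73.0 to 81.4 TPM, while in controls Itga6 (67.6 to 74.0 TPM) lay above Itga5 (43.8 to 66.6 TPM). Itgb5 and Itgav followed, at 40.8 ± 5.77 and 35.4 ± 2.82 TPM in cKO libraries, where their ranges overlapped, and at 31.7 ± 5.04 and 24.5 ± 0.81 TPM in controls, where they did not (SD, n = 3 each). Itgb3, Spp1 and Itga1 could not be ranked beyond their spread, with means of 19.7 to 21.9 TPM in cKO libraries and 12.9 to 15 TPM in controls. Itgb8 and Itgb6 were lowest, at 7.64 ± 2.53 and 2.04 ± 0.940 TPM in cKO libraries and 7.43 ± 0.946 and 1.10 ± 0.389 TPM in controls (SD, n = 3 each). Itgav stood at 0.443 to 0.606 of the summed TPM of Itgb3, Itgb5, Itgb6 and Itgb8 in cKO libraries and at 0.393 to 0.527 in controls.

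cKO library 1 was the highest of the 6 libraries for 7 of the 10 genes, namely all but Itgb6, Itgb8 and Spp1, and it was the lowest for Itgb6 and Itgb8. Control library 1 was the lowest for 5, which were Itgav, Itgb3, Itgb5, Itga1 and Itga5. Without cKO library 1 the median log2 fold change of the 10 was 0.22, and 2 genes, Itgav at 0.35 and Itga1 at 0.45, were at an unadjusted p under 0.05 in edgeR's quasi-likelihood test, where 2.71% of all tested genes were higher at that level. Without control library 1 the same 2 genes were at that level, with log2 fold changes of 0.42 for both, where 2.39% of all tested genes were higher. With a trend on gene length removed, the genes at that level were Itgav and Itgb5, where 3.3% of all tested genes were higher. Itgav kept log2 fold changes between 0.35 and 0.52 with each library left out, and Itga5 ranged from 0.25 to 0.76.

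**Figure D4:**
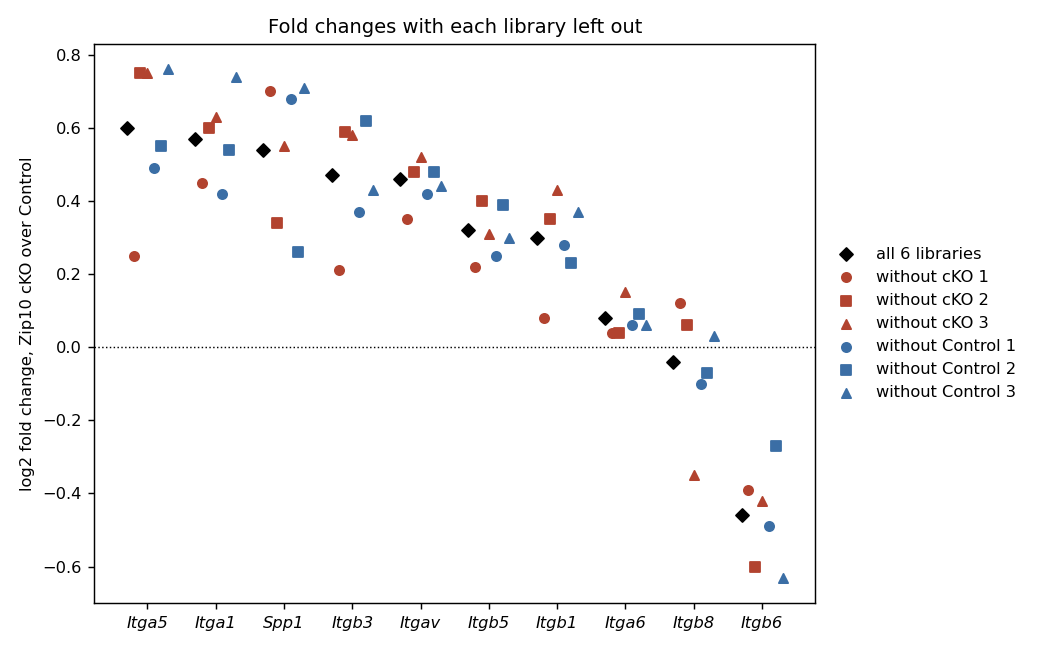
Log2 fold change of Zip10 cKO over Control (vertical axis) of the 9 integrin genes and Spp1 from edgeR's quasi-likelihood fit, with all 6 libraries (black diamonds) and with each library left out in turn (red for a cKO library left out, blue for a control). Itgb1, Itga5 and Itgb3 each have their own lowest value without cKO library 1, at 0.08, 0.25 and 0.21. Itgb8 falls on both sides of 0.

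The other 17 integrin subunit genes were all tested, and edgeR's quasi-likelihood test called none of them after adjustment. Of these, 16 had a log2 fold change above 0 and 1, Itga10, had one below, with a median of 0.35. In CPM 4 lay higher in all cKO libraries with no overlap, where 6.93% of all tested genes did so. At an unadjusted p under 0.05, 3 were higher and 0 lower, where 4.48% and 1.98% of all tested genes were. The 3 were Itga8, of a receptor for nephronectin on stroma and smooth muscle, at 0.55 ± 0.17, Itga2, of a collagen receptor, at 0.53 ± 0.20, and Itga7, the muscle laminin receptor subunit, at 0.41 ± 0.14 (log2 fold change with SE). On log2(TPM + 1) Itga7 was at 0.14, and in TPM its groups and those of Itgal overlapped. Without cKO library 1 Itga2 was at 0.30. Itgam, of the myeloid receptor Mac-1, had 61.3, 14.8 and 24.1 CPM in cKO libraries 1, 2 and 3, against 12.8, 13.7 and 21.2 CPM in controls 1, 2 and 3, so that cKO library 1 alone stood far above the rest, and its log2 fold change was 1.07 with all libraries and 0.29 without that one.

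**Figure D5:**
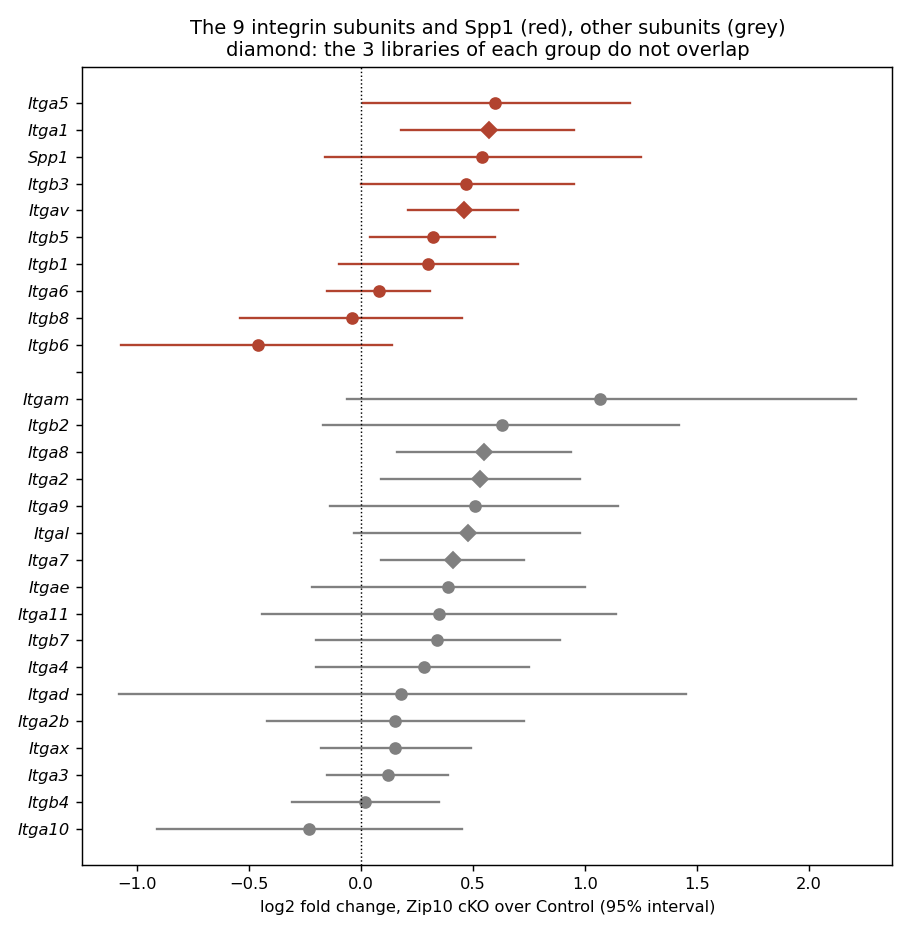
Log2 fold change of Zip10 cKO over Control with its 95% interval (horizontal axis) for the 9 integrin genes and Spp1 (red, top) and for the 17 other integrin subunit genes (grey, bottom). Diamonds mark genes whose cKO libraries all lay above all controls, which are Itgav and Itga1 in red and Itga8, Itga2, Itgal and Itga7 in grey.

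Of 24 listed matrix ligands, growth factors and osteopontin receptors, 23 were tested. All 23 had a log2 fold change above 0, with a median of 0.24 and a smallest value that rounded to 0.00. Of all 16737 tested genes, 8274 were above 0. At an unadjusted p under 0.05 in edgeR's quasi-likelihood test 5 of the 23 were higher, where 4.48% of all tested genes were. None passed after adjustment. Npnt, nephronectin, the ligand of alpha 8, was at 89.2, 170 and 90.7 CPM in cKO libraries 1, 2 and 3, against 65.1, 81.2 and 81.1 CPM in controls 1, 2 and 3. The groups did not overlap, and cKO library 2 was the highest. The fibrillar collagen genes Col1a1 and Col1a2, ligands of alpha 1 and alpha 2, had log2 fold changes of 0.48 ± 0.15 and 0.43 ± 0.16, and Lamc1, a laminin chain, one of 0.46 ± 0.19 (SE). Lamc1 was at 0.27 without cKO library 1, Col1a2 at 0.28 without control library 1, and Npnt at 0.24 without cKO library 2, against 0.62 with all libraries.

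Of 23 adaptors and signalling genes that link integrins to actin, 18 had a log2 fold change above 0 and 5 below, with a median of 0.17. In edgeR's quasi-likelihood test 5 were higher and 0 lower at an unadjusted p under 0.05, where 4.48% and 1.98% of all tested genes were. None passed after adjustment. The 4 with the smallest p were Lims2, an adaptor of the integrin-linked kinase complex, at 0.49 ± 0.13, Vcl, vinculin, at 0.56 ± 0.17, Tln1, talin, which activates integrins from inside the cell, at 0.43 ± 0.13, and Tns1, tensin, at 0.49 ± 0.15 (log2 fold change with SE). With a trend on gene length removed, Tln1 was at 0.26 and Tns1 at 0.32. Tns1 was at 493, 486 and 503 CPM in cKO libraries 1, 2 and 3, against 278, 349 and 430 CPM in controls 1, 2 and 3.

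Among 10414 other named genes with a mean of at least 10 CPM, the 3 whose levels followed those of Itgav most closely over the 6 libraries were Tnxb, tenascin-X of the matrix, Flnc, filamin C of muscle, and Tead1, a TEAD transcription factor. Their root mean square distances from Itgav, in log2 CPM centred on each gene's mean, were 0.042, 0.046 and 0.051, where Itgav itself varied by 0.247 around its mean. For Spp1 the 3 nearest were Prf1, perforin of cytotoxic lymphocytes, at 0.194, Psd at 0.273 and Fam129a at 0.278, where Spp1 varied by 0.514. Prf1 was at 12.3, 17.0 and 12.6 CPM in cKO libraries 1, 2 and 3, against 9.23, 6.18 and 10.2 CPM in controls 1, 2 and 3.

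Markers of cell types that carry these integrins also differed between the libraries, and in whole tissue fewer cells of a type and less RNA per cell cannot be told apart. All 8 smooth muscle markers had a log2 fold change above 0, with a summed level of 6851 to 10897 TPM in cKO libraries and 4035 to 7851 TPM in controls. Of 9 stromal markers 6 were above 0 and 3 below, with a median log2 fold change of 0.11. Their summed level was 4794 to 5777 TPM in cKO libraries and 3268 to 4398 TPM in controls. These sums did not overlap, nor did those of the NK and T cell markers and of the red blood cell genes given below. Such sums weigh the most abundant markers most. Taken singly in CPM, all cKO libraries lay above all controls for 3 of the 9, where 6.93% of all tested genes did so. They lay below for 1, where 5.78% did. All 10 epithelial markers were below 0, with 642 to 961 TPM in cKO libraries and 759 to 1123 TPM in controls. Of 8 macrophage markers 7 were above 0, with 323 to 751 TPM in cKO libraries, cKO 1 the highest, and 305 to 378 TPM in controls, and of 8 NK and T cell markers 7, with 94.1 to 120 TPM in cKO libraries and 61.5 to 74.5 TPM in controls. Of 8 endothelial markers 1 was above 0, with 485 to 563 TPM in cKO libraries and 513 to 647 TPM in controls. Platelet markers, of which 5 of 7 were tested and 3 were above 0, summed to 26.2 to 37.2 TPM in cKO libraries and 24.6 to 30.8 TPM in controls, and red blood cell genes, 5 of 5 above 0, to 637 to 779 TPM in cKO libraries and 357 to 629 TPM in controls. For 5 of the 8 NK and T cell markers all cKO libraries lay above all controls in CPM, and for 0 of them below, beside the 6.93% and 5.78% of all tested genes. For the 5 red blood cell genes both numbers were 0. No marker was at 0 in all libraries. The part of these cell types in the integrin and Spp1 values was not tested.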

How the data were processed

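RNA from mouse uterus on day 4 of pregnancy was sequenced in 6 libraries, grouped by their titles. Oligo(dT) beads selected the mRNA before random priming, per the labels. The submitters' processing notes list STAR 2.7.10a, RSEM 1.3.3, fastp 0.23.2, edgeR 3.38.4 and the build GRCm39; annotation release and strand setting are not given in these sources. The authors deposited RSEM expected counts per gene, in which reads shared between genes are split, with TPM and effective lengths, per the file headers. Deposited TPM values are per effective length, sum to 1000000 in each library and keep no depth.

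Symbols came from GENCODE M21, which named 91.8% of the gene IDs. Expected counts were rounded, filtered by filterByExpr (minimum count 10, total 15), scaled by TMM and tested with glmQLFit and glmQLFTest of edgeR 4.0.16 (quasi-likelihood, robust, two-sided, R 4.3.3), with Benjamini-Hochberg adjustment over 16737 genes and a threshold of 0.05. SEs and 95% intervals come from the F statistic. The script was tested on simulated data, with a pass set only on the largest simulated fold change. That test does not show whether changes as small as those of the 10 genes would be called. No 2 libraries were alike within sampling noise (lowest chi-square over its degrees of freedom 14.3).

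The 10 genes and all lists were chosen with earlier results of these data known. Genes named beside them were the 4 with the smallest p in each of 3 lists and the 3 nearest to Itgav and to Spp1; Itgb4, Itga9, Itga4, Itga10 and Itgal were added after the values were seen. Markers are reported as sums, with a median for stroma added after the values were seen. Group overlap for stroma, NK and T cells and red blood cells was also added then. Alternatives were DESeq2 1.42.0, limma-voom (limma 3.58.1), RLE and upper quartile scaling, no filter and a filter of 1 CPM in 3 libraries, limma-trend on TPM with pseudocounts of 1 and 0.1, a replicate block, a gene length trend removed (loess, span 0.5), and each library left out. Overlap in TPM and counts at an unadjusted p were added after the data were seen.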

Additional observations from a re-analysis of the deposited data

How the results depend on the processing

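None of the 10 genes passed an adjusted p of 0.05 under any of the 16 alternatives run. Over all genes the quasi-likelihood test called 0, with 1081 at an unadjusted p under 0.05; DESeq2 called 38, no filter on low counts gave 15, and leaving out a library gave 0 to 2, the 2 without cKO library 1. Of 464 log2 fold changes of 29 named genes under these alternatives, 452 kept their direction or rounded to 0.00. Itgb6 turned to 0.50 and 0.78 on TPM with pseudocounts of 1 and 0.1. With a library left out Itgb8 ranged from -0.35 to 0.12 and Slc39a10 from -0.19 to 0.26; Slc39a10, at 0.00, was also at -0.05 in limma-voom, -0.01 with upper quartile scaling, -0.05 with the replicate block and -0.11 with the length trend removed. One named gene passed in an alternative, Tnxb in DESeq2 (log2 fold change 0.43, adjusted p = 0.0449). With the length trend removed, Tnxb was at 0.23 (edgeR quasi-likelihood unadjusted p = 0.108, adjusted p = 0.845). The number of the 10 genes higher at an unadjusted p under 0.05 was 4 and fell to 2 without the length trend (Itgav and Itgb5), without control library 1 or without cKO library 1 (Itgav and Itga1 in both), where 3.3%, 2.39% and 2.71% of all genes were. It was 5 in DESeq2, with upper quartile scaling, in both TPM fits and without cKO library 2 or 3, where 2.77% to 5.66% of all genes with a p were.

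The beta subunit shares moved with expected counts in place of TPM, since counts are not divided by length: Itgb3 to 9.20% in cKO libraries and 8.27% in controls, Itgb5 to 7.95% in cKO libraries and 7.75% in controls, and Itgb8 to 4.97% in cKO libraries and 5.92% in controls. The Itgb6 share turned round, to 0.283% in cKO libraries and 0.469% in controls. In the replicate block fit 0 genes and 0 of the 10 passed, and 3 of the 10 (Itgav, Itga1 and Itgb5) were higher at an unadjusted p under 0.05, where 5.33% of all genes were. Deviations of same-numbered libraries from their group means correlated at 0.092, 0.254 and 0.189 across genes for numbers 1, 2 and 3, all above 0. cKO 2 and cKO 3 were nearest to the control of their number and cKO 1 to control 3, at 0.119. These correlations cannot decide whether the numbers pair the libraries, since number 1 goes against numbers 2 and 3. The main fit left the numbers out, with the replicate block as an alternative. Depth limits Itgb6 most, with 51 to 95 counts in a library.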
